A study of Oryza sativa with 9 samples.

Results

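Starch branching and debranching enzymes give amylopectin, the major polymer of rice grain starch, its branched shape. Their transcripts were measured in developing seeds of 2 RBP-P mutant lines and of wild type. The genes were taken by locus from a list of 7: BEI (LOC_Os06g51084), BEIIa (LOC_Os04g33460), BEIIb (LOC_Os02g32660), ISA1 (LOC_Os08g40930), ISA2 (LOC_Os05g32710), ISA3 (LOC_Os09g29404) and PUL (LOC_Os04g08270). Of these, 6 loci were found among the 55986 loci of the expression table, and LOC_Os04g08270 was not analysed here. The line P1MH carries the change G401S in RBP-P, an RNA-binding protein known to bind glutelin and prolamine messenger RNAs. The line P3MH carries A252T in the same protein, and WT is wild type. All 3 genotypes grew in chambers kept at 27 °C under cycles of 12 h light and 12 h darkness, and dehulled seeds were taken 10 to 14 days after flowering. Each genotype had 3 libraries, stated to be biological repeats, and expression is given as RPKM, a read count divided by exon length and by the library's mapped reads. Each mutant is represented by a single line, and the labels do not give its genetic background or whether seeds of several plants were pooled.

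Branching enzymes cut a linear glucan chain and rejoin the cut end as a side branch, while isoamylases, which are debranching enzymes, remove misplaced branches so that the polymer can pack into crystalline granules. In rice endosperm BEIIb makes the short chains of amylopectin clusters and its loss gives the high-amylose amylose-extender grain, while BEI acts on longer chains. BEIIa is a related isoform also active in leaves. ISA1 is the catalytic debranching isoamylase of the endosperm, and its loss gives the sugary-1 grain that stores phytoglycogen. ISA2 lacks catalytic activity and forms complexes with ISA1, and ISA3 is a separate plastid isoamylase linked to starch breakdown.

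The libraries held 5865007 to 7498434 mapped reads, a total worked out from the steps between low RPKM values. The 10 highest genes took 37.8 to 39.6% of all RPKM in P1MH, 33.7 to 37.2% in P3MH and 30.9 to 33.9% in WT. Every P1MH library thus lay above every WT library in this share, and its part in the fold changes was not tested. RBP-P itself averaged 9.43 ± 2.09 RPKM in P1MH, 9.50 ± 2.14 in P3MH and 13.9 ± 1.94 in WT (SD, n = 3 each), a level that does not check the labels because both changes are amino acid substitutions. Among low values lying on a countable step, 22.5 to 24.6% in the WT libraries were at steps of 0.5 read, against at most 0.242% in any mutant library. For the 6 genes, 7 of 18 WT values and 0 of 36 mutant values fell on a step of 0.5 read. These steps run with WT, so a difference in read counting cannot be told apart from genotype in the comparisons with WT. Embryo and aleurone markers (6 of 6 present, none at 0) summed to 1198 to 1820 RPKM in P1MH, 914 to 1208 RPKM in P3MH and 642 to 994 RPKM in WT. Markers of starchy endosperm (5 of 5 present, none at 0) summed to 37847 to 43571 RPKM in P1MH, 25459 to 31966 RPKM in P3MH and 23519 to 28311 RPKM in WT, nearly all of it the glutelins GluA-1 and GluA-2. Green pericarp markers (4 of 4, none at 0) summed to 241 to 346, 254 to 355 and 299 to 349 RPKM in P1MH, P3MH and WT. Over all genes tested by limma, 3.18% rose and 5.63% fell in P1MH against WT, and 1.67% rose and 3.1% fell in P3MH against WT. By limma, 3 of 6 embryo and aleurone markers rose and 0 fell in P1MH against WT, and none passed in P3MH against WT. The 3 became 2 without P1MH replicate 1 or 3, without WT replicate 2 or without a filter on low values, and 1 without WT replicate 3. In P3MH, 1 rose without WT replicate 1. Of the endosperm markers the 2 glutelins, whose messenger RNAs RBP-P is known to bind, rose in P1MH (limma adjusted p = 0.0464 for GluA-1 and 0.0369 for GluA-2). NF-YB1, a transcription factor of the endosperm, averaged 121 RPKM in P1MH, 130.1 in P3MH and 197 in WT. It fell in both mutants (log2 fold changes -0.70 and -0.60, limma adjusted p = 0.0157 and 0.0464). Of the green pericarp markers 2 of 4 fell in P1MH and 1 of 4 in P3MH, so markers within these last lists differed. Quantile normalization left none of the endosperm calls in P1MH, and the other 3 rescalings left none in P3MH. No endosperm marker was called higher in P1MH with a replicate block, without P1MH replicate 1, 2 or 3, or without WT replicate 2 or 3. None was called lower in P1MH without P1MH replicate 1 or WT replicate 1 or 2. In P3MH none was called when any 1 of the P3MH or WT replicates was left out. All 4 rescalings left 1 of the pericarp calls in P1MH and 0 in P3MH. In P1MH, 1 was also left without a filter on low values, P1MH replicate 1 or 3, or any 1 of the WT replicates. The pericarp call in P3MH was also lost without P3MH replicate 1 or 3 or any 1 of the WT replicates. The same held with a replicate block, without a filter and for limma without trend and robust moderation. The part of these tissues in the results was not tested. In whole seeds a change in the share of a tissue and a change of RNA per cell cannot be told apart.

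The 6 transcripts spanned a wide range of levels and kept nearly the same order in every library. BEI was the highest, with a mean of 2249 RPKM over the 9 libraries and rank 26 among all loci of the table. BEIIb followed with 1432 RPKM and rank 35, and ISA1 with 313 RPKM and rank 112. BEIIa (63.8 RPKM) and ISA2 (51.8 RPKM) lay close together, and ISA3 was the lowest at 6.71 RPKM. The ranges over the 9 libraries were apart for every neighbouring pair in this order except BEIIa and ISA2. BEIIa exceeded ISA2 in 1 of 3 P1MH libraries, 2 of 3 P3MH libraries and 3 of 3 WT libraries, so these neighbours overlapped over the 9 libraries and in both mutants, while in WT BEIIa (66.7 to 98.8 RPKM) lay above ISA2 (53.3 to 54.7 RPKM). The 6 genes together took 0.643 to 0.868% of all RPKM of a library, and 40.7 to 44.7% of the RPKM of the 28 starch synthesis loci measured.

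**Figure D1:**
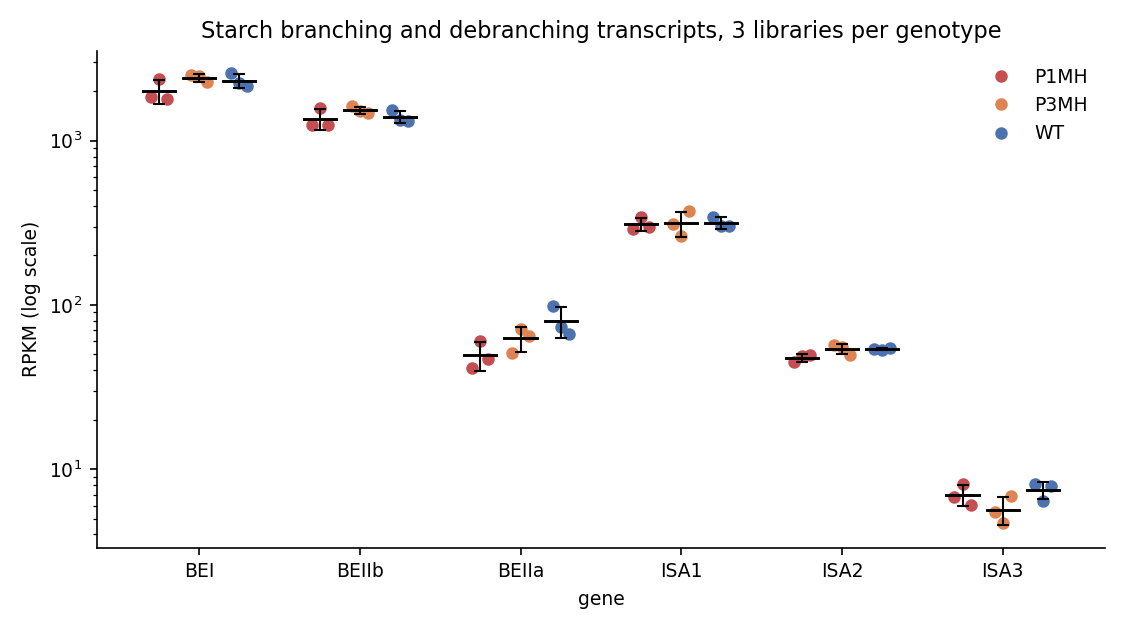
RPKM (log axis) of the 6 genes in each library, with points for libraries, horizontal bars for means and whiskers for SD, in P1MH, P3MH and WT from left to right. BEI and BEIIb are the 2 highest genes in every library, and the P1MH libraries of BEIIa (41.5 to 60.4 RPKM) lie below those of WT (66.7 to 98.8 RPKM).

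Levels compared between genes depend on the gene models, which differed in length. The smallest exon length that fitted the values was 4955 bases for BEI, 3265 for BEIIb, 1266 for BEIIa, 3772 for ISA1, 2631 for ISA2 and 4561 for ISA3. For BEIIa, BEIIb, ISA1 and ISA3 a multiple of this length fitted as well, and their read numbers are then lower bounds. The genes lie on 6 different chromosomes, all on the minus strand, in the coordinates of the deposited table, whose build is not given in the sources used here. BEI spans 30897376 to 30905815 of chromosome 6, BEIIb 19355748 to 19367127 of chromosome 2 and BEIIa 20239790 to 20243460 of chromosome 4. ISA1 spans 25892391 to 25900576 of chromosome 8, ISA2 19154970 to 19157600 of chromosome 5 and ISA3 17851430 to 17868669 of chromosome 9. Reads shared between related genes, such as BEIIa and BEIIb, were not tested.

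Depth was ample for the high genes and thinner for the low ones. BEI was covered by 53336 to 86774 reads per library and ISA3 by 129 to 255.5 reads. Counting alone gives a coefficient of variation of 0.339 to 0.433% for BEI and 6.26 to 8.80% for ISA3. The replicates varied more than that for BEI, by 16.2% in P1MH, 5.51% in P3MH and 9.54% in WT. For ISA3 the replicate variation was 15.2% in P1MH, 19.4% in P3MH and 12.2% in WT. ISA2, covered by 688 to 1051.5 reads, varied by 5.42% in P1MH, 7.32% in P3MH and 1.34% in WT, and the WT value is below the 3.08 to 3.81% that counting alone would give.

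The comparisons ask whether seed transcripts differ between each RBP-P mutant and WT. Among the branching enzymes, BEIIa fell in P1MH against WT. It stood at 41.5, 60.4 and 46.6 RPKM in the P1MH libraries, at 51.0, 71.7 and 64.9 RPKM in the P3MH libraries, and at 98.8, 73.0 and 66.7 RPKM in the WT libraries. All 3 P1MH libraries lay below all 3 WT libraries, while those of P3MH overlapped with WT. The means were 49.5 ± 9.78 RPKM in P1MH, 62.5 ± 10.6 RPKM in P3MH and 79.5 ± 17.0 RPKM in WT (SD, n = 3 each). The fitted log2(RPKM + 1) fold change in P1MH against WT was -0.67 (SE 0.19, 95% interval -1.09 to -0.25, limma adjusted p = 0.0489). This lay just under the threshold of 0.05, and 16 of 19 alternative settings lost the call, among them all 4 rescalings of the libraries, with limma adjusted p between 0.0302 and 0.178 over all 19. It was lost without P1MH replicate 1 or 3, without P3MH replicate 2 or 3, and without any 1 of the WT replicates. The fold change stayed negative in all of them, between -0.82 (without P1MH replicate 2) and -0.50 (without WT replicate 1). Against WT, P3MH gave -0.34 (95% interval -0.75 to 0.08, limma adjusted p = 0.358). This became -0.17 without WT replicate 1, -0.20 without P3MH replicate 1, and -0.19 and -0.18 under median-ratio and upper-quartile rescaling. Over all settings it stayed between -0.45 and -0.17 and was never called. The comparison of P1MH against P3MH gave -0.33 (95% interval -0.75 to 0.08, limma adjusted p = 0.504).

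BEI, the branching enzyme of longer chains, did not pass in any comparison. It stood at 1835, 2379.6 and 1798 RPKM in P1MH, at 2522, 2478 and 2272 RPKM in P3MH, and at 2569.8, 2240.1 and 2149.5 RPKM in WT. The P1MH group overlapped with WT through replicate 2, the other two P1MH libraries lying below every other library of the series. The log2 fold change was -0.22 in P1MH against WT (95% interval -0.61 to 0.17, limma adjusted p = 0.497), 0.07 in P3MH against WT (-0.32 to 0.46, limma adjusted p = 0.871) and -0.28 in P1MH against P3MH (-0.68 to 0.11, limma adjusted p = 0.545). Without P1MH replicate 2 the value against WT was -0.35 and still not called (limma adjusted p = 0.300).

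BEIIb, the isoform of the short cluster chains, also passed in no comparison. Its values were 1239, 1587 and 1254 RPKM in P1MH, 1616, 1519.7 and 1473 RPKM in P3MH, and 1537, 1345 and 1317 RPKM in WT. Replicate 2 of P1MH was again the high one of its group, and the groups overlapped in both comparisons with WT. Its log2 fold change was -0.05 in P1MH against WT (95% interval -0.42 to 0.33, limma adjusted p = 0.899), 0.14 in P3MH against WT (-0.24 to 0.51, limma adjusted p = 0.700) and -0.18 in P1MH against P3MH (-0.56 to 0.19, limma adjusted p = 0.702).

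The isoamylases were then compared in the same way. ISA1, the catalytic isoform, stood at 291, 343 and 297 RPKM in P1MH, at 309, 261 and 373 RPKM in P3MH, and at 345, 301 and 302 RPKM in WT. The groups overlapped in all 3 comparisons, and P3MH spread more widely than the other two genotypes. The means were 310.3 ± 28.4, 314 ± 56.0 and 316 ± 24.8 RPKM in P1MH, P3MH and WT (SD, n = 3 each). The log2 fold change was -0.03 in P1MH against WT (95% interval -0.40 to 0.34, limma adjusted p = 0.943) and -0.02 in P3MH against WT (-0.39 to 0.35, limma adjusted p = 0.965). Between P1MH and P3MH it was -0.01 (-0.38 to 0.36, limma adjusted p = 0.994).

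ISA2, the partner without catalytic activity, had 44.6, 48.8 and 49.2 RPKM in P1MH, 56.9, 55.6 and 49.5 RPKM in P3MH, and 53.7, 53.3 and 54.7 RPKM in WT. All P1MH libraries lay below all P3MH and all WT libraries, by little in the first case (49.2 against 49.5 RPKM). The log2 fold change in P1MH against WT was -0.18 (SE 0.13, 95% interval -0.45 to 0.09, limma adjusted p = 0.415) and did not pass. It was 0.00 in P3MH against WT (-0.27 to 0.27, not called) and -0.18 in P1MH against P3MH (-0.45 to 0.09, limma adjusted p = 0.591).

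ISA3, the isoamylase linked to starch breakdown, had 6.77, 8.14 and 6.05 RPKM in P1MH, 5.45, 4.67 and 6.83 RPKM in P3MH, and 8.11, 6.43 and 7.91 RPKM in WT. P3MH libraries 1 and 2 lay below every WT library, and P3MH replicate 3 overlapped with WT. The log2 fold change in P3MH against WT was -0.36 (SE 0.17, 95% interval -0.73 to 0.02, limma adjusted p = 0.273). In P1MH against WT it was -0.09 (-0.46 to 0.28, limma adjusted p = 0.803), and in P1MH against P3MH 0.27 (-0.10 to 0.64, limma adjusted p = 0.549).

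**Figure D2:**
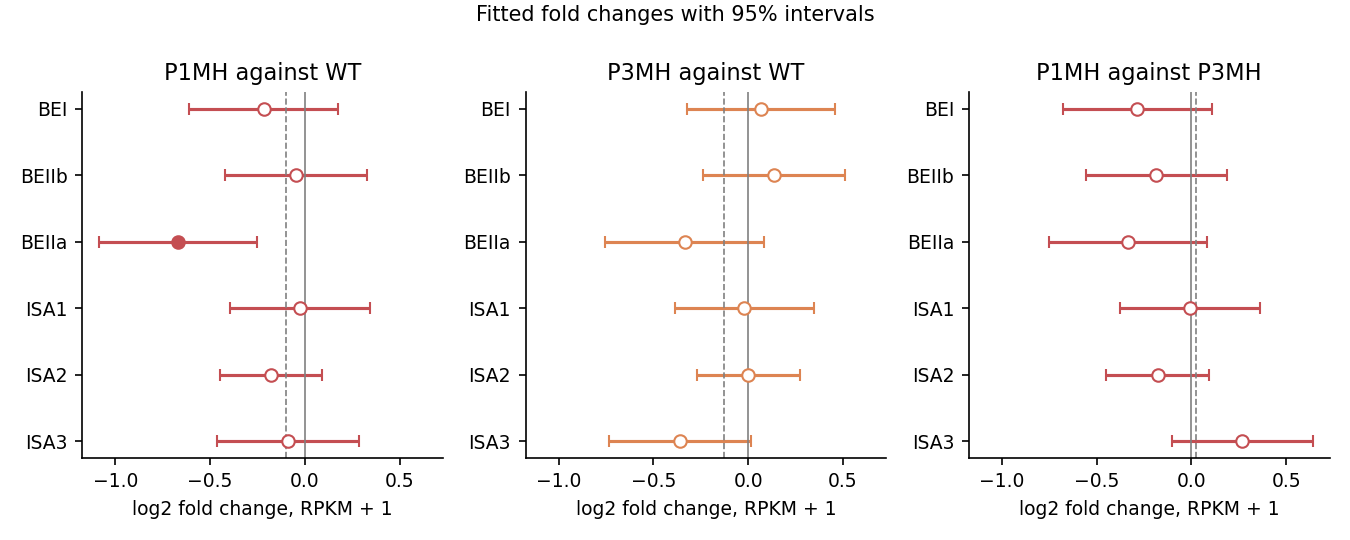
Fitted log2 fold changes of RPKM + 1 for the 6 genes, with 95% intervals from limma, in the 3 comparisons. The filled point (BEIIa, P1MH against WT, -0.67) is past an adjusted p of 0.05 and the open points are not. The solid line marks 0 and the dashed line the median of all genes tested.

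Counted together, 1 of the 6 genes fell and 0 rose in P1MH against WT by limma, where 5.63% of the 16064 genes tested fell and 3.18% rose. The median log2 fold change of the 6 was -0.13, beside -0.10 over all genes tested. All 6 values were below 0, as were those of 10021 of the 16064 genes tested. The negative signs of BEIIb, ISA1 and ISA3 turned under median-ratio, upper-quartile and quantile rescaling and without the 50 highest genes, and that of BEI under quantile normalization. Libraries of P1MH lay wholly below WT at 2 of 6 genes (BEIIa and ISA2), a share set against 21.5% of all genes tested. In P3MH against WT none of the 6 passed by limma, where 3.1% of genes tested fell and 1.67% rose, and none had an unadjusted p under 0.05, where 19.9% of genes tested did. The median of the 6 was -0.01, beside -0.13 over all genes, and no gene had libraries apart, where 27.6% of genes tested did. Between P1MH and P3MH none of the 6 passed by limma, where 0.0311% of genes tested did, and none had an unadjusted p under 0.05, where 12.8% did. Their median was -0.18, beside 0.02 over all genes. Libraries of P1MH lay wholly below P3MH at ISA2 alone among the 6, where 6.47% of all genes did so. These comparisons share libraries, so their values are not independent of each other. Across the whole table, 511 genes rose and 905 fell in P1MH against WT by limma, and 268 rose and 498 fell in P3MH against WT. Median-ratio rescaling gave 657 that rose and 572 that fell in P1MH, and 407 and 330 in P3MH.

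A ratio of a pair of genes within a library does not move with the scaling of that library. BEI exceeded BEIIb by a factor of 1.48, 1.4999 and 1.43 in the P1MH libraries, 1.56, 1.63 and 1.54 in the P3MH libraries, and 1.67, 1.67 and 1.63 in the WT libraries. The 3 genotypes did not overlap, with P1MH lowest, P3MH between and WT highest, though the highest P3MH and the lowest WT library differed only in the 3rd digit (1.631 and 1.632). The means were 1.47 ± 0.0340 in P1MH, 1.58 ± 0.0465 in P3MH and 1.66 ± 0.0213 in WT (SD, n = 3 each). The log2 difference was -0.17 in P1MH against WT, -0.07 in P3MH against WT and -0.10 in P1MH against P3MH. A 2-sided exact permutation test gave p = 0.1 for each of these, which is the smallest value that 3 against 3 libraries allow, so none can pass 0.05. For ratios of all other tested genes to BEIIb, libraries lay wholly below in 15.5% of genes in P1MH against WT, 29.8% in P3MH against WT and 2.12% in P1MH against P3MH.

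BEIIa was a small part of the branching transcripts, and its ratio to BEIIb was lower in both mutants than in WT in every library. Ratios of other tested genes to BEIIb lay wholly below WT in 15.5% of genes in P1MH and 29.8% in P3MH. For BEIIa the ratio was 0.0335, 0.0381 and 0.0372 in P1MH, 0.0315, 0.0472 and 0.0440 in P3MH, and 0.0642, 0.0543 and 0.0507 in WT. BEIIb thus exceeded BEIIa by 26.3 to 29.9 times in P1MH, 21.2 to 31.7 times in P3MH and 15.6 to 19.7 times in WT. The log2 difference was -0.63 in P1MH against WT and -0.48 in P3MH against WT (exact permutation p = 0.1 for both, the smallest possible). P1MH and P3MH overlapped, with a difference of -0.16 (exact permutation p = 0.5). Leaving out P3MH replicate 1 changed these to -0.30 (P3MH against WT) and -0.33 (P1MH against P3MH), and leaving out P3MH replicate 2 gave -0.042 for P1MH against P3MH. Taken as shares of the 3 branching transcripts, BEIIa made up 1.22 to 2.35%, BEIIb 36.6 to 40.5% and BEI 58.0 to 61.2% over the 9 libraries.

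ISA1 exceeded ISA2 in all libraries, by 6.52, 7.02 and 6.04 times in P1MH, 5.43, 4.69 and 7.53 times in P3MH, and 6.41, 5.66 and 5.52 times in WT. The genotypes overlapped in every comparison. The log2 difference was 0.16 in P1MH against WT (exact permutation p = 0.2), -0.02 in P3MH against WT (exact permutation p = 0.8) and 0.18 in P1MH against P3MH (exact permutation p = 0.5). Over the libraries ISA1 made up 81.2 to 86.9% of the 3 isoamylase transcripts, ISA2 11.5 to 17.3% and ISA3 1.45 to 2.17%. The 3 branching transcripts together exceeded the 3 isoamylase transcripts by 8.79 to 10.1 times in P1MH, 8.88 to 12.7 times in P3MH and 9.70 to 10.4 times in WT.

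**Figure D3:**
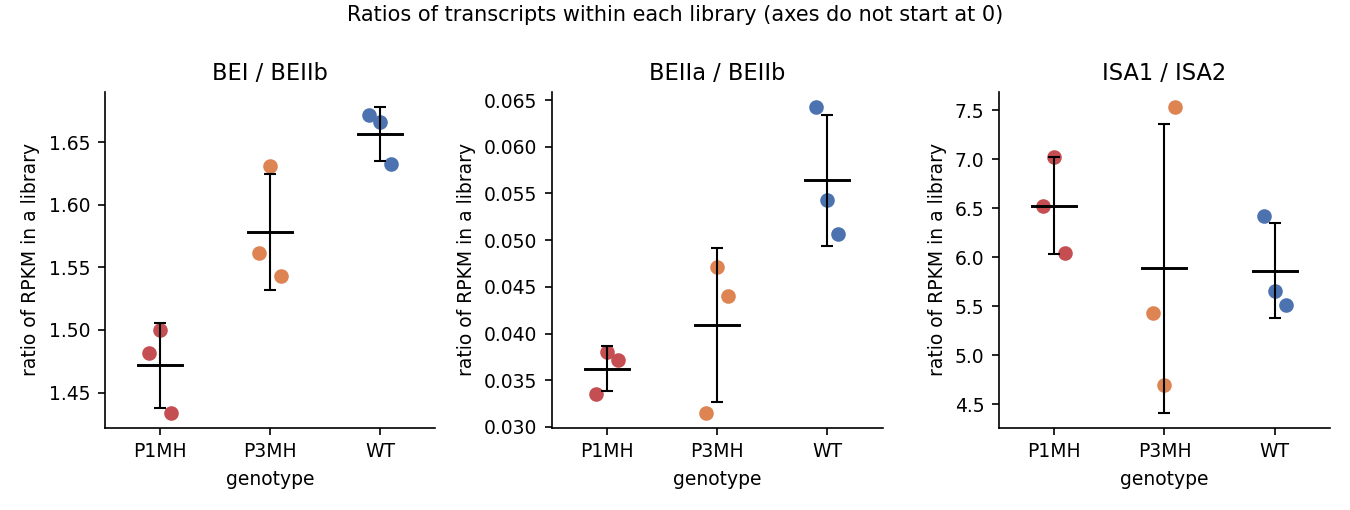
Ratio of RPKM within each library for BEI over BEIIb, BEIIa over BEIIb and ISA1 over ISA2, in P1MH, P3MH and WT from left to right, with points for libraries, bars for means and whiskers for SD. BEI over BEIIb is apart in all 3 genotypes (1.43 to 1.4999, 1.54 to 1.63 and 1.63 to 1.67), but P3MH and WT only barely (1.631 against 1.632). BEIIa over BEIIb lies below WT in both mutants and overlaps between them, and ISA1 over ISA2 overlaps in every comparison. The vertical axes do not start at 0.

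Within a genotype, some of the genes moved together from library to library. P1MH replicate 2 stood above its genotype mean at all 6 genes, by 0.26 (BEI), 0.23 (BEIIb), 0.30 (BEIIa), 0.15 (ISA1), 0.04 (ISA2) and 0.20 (ISA3) on the log2(RPKM + 1) scale. The median gene of that library stood only 0.04 above. BEI and BEIIb had the closest profiles among the 15 pairs of the 6 genes, with Pearson's r of 0.92 and Spearman's rho of 0.90 over the 9 libraries, 0.85 without the 2 libraries farthest from the median of BEI, and 0.98 for deviations from the genotype means. ISA1 and ISA3 had an r of 0.66 and a rho of 0.65, 0.61 without the 2 libraries farthest from the median of ISA1, and 0.87 for deviations from the genotype means. In P3MH replicate 2, ISA1 lay 0.25 and ISA3 0.22 below the genotype mean (deviations of -0.25 and -0.22), while BEIIa was 0.21 above it. ISA1 and ISA2 had an r of -0.20 and a rho of 0.02, 0.21 without the 2 libraries farthest from the median of ISA1, and -0.41 for deviations from the genotype means. These are descriptions over 9 libraries that share their scaling to a total.

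**Figure D4:**
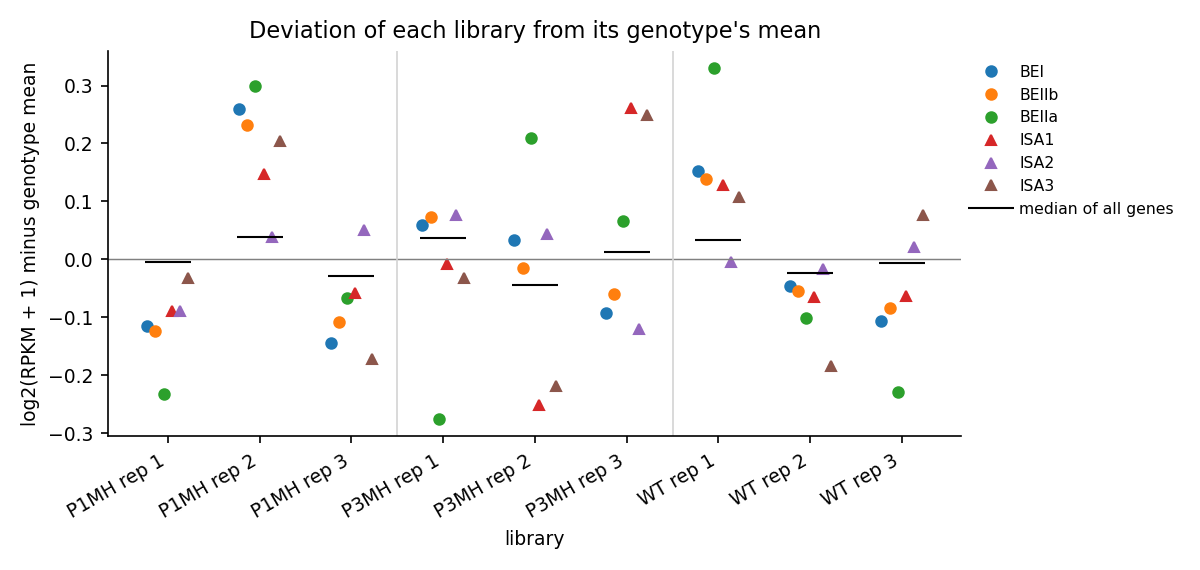
Deviation of each gene from its genotype's mean, in log2(RPKM + 1), for every library, with circles for branching enzymes, triangles for isoamylases and a dash for the median of all genes tested. All 6 genes lie above 0 in P1MH replicate 2, and ISA1 and ISA3 lie apart from the branching enzymes in P3MH replicates 2 and 3.

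Each gene was also set beside all 16063 other tested genes by Pearson's r over the 9 libraries. Among starch genes, AGPS2, which encodes a small subunit of the enzyme that makes ADP-glucose, was most like BEI (r = 0.92, the third highest of all genes) and most like BEIIa (r = 0.79, 427th). BEI was the starch gene most like BEIIb (r = 0.92, 5th). DPE2, a disproportionating enzyme, was most like ISA1 (r = 0.79, 111th) and ISA3 (r = 0.91, 19th), and LOC_Os01g44220 was most like ISA2 (r = 0.94, 10th). Over all genes the closest were LOC_Os02g39050 for BEI (r = 0.93), LOC_Os01g72090 for BEIIa (0.97), LOC_Os03g53590 for BEIIb (0.98), LOC_Os01g01150 for ISA1 (0.96), LOC_Os12g05110 for ISA2 (0.97) and LOC_Os07g17130 for ISA3 (0.95). With 9 libraries and so many genes, high values of r arise in number, and these are given as a description only.

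The other 22 starch synthesis loci, from ADP-glucose supply to chain elongation and plastid transport, gave the setting. In P1MH against WT 2 of the 22 fell and 0 rose by limma (5.63% and 3.18% of all genes), with a median log2 fold change of -0.11. The 2 were LOC_Os03g55090, with 697, 772 and 614 RPKM in P1MH against 1237, 1163 and 1286 RPKM in WT (log2 fold change -0.83, limma adjusted p = 0.00925), and LOC_Os03g52460, with 58.8, 63.1 and 58.2 RPKM in P1MH against 95.1, 96.4 and 99.1 RPKM in WT (log2 fold change -0.68, limma adjusted p = 0.00537). At both loci the P1MH and WT libraries were apart. In P3MH against WT 1 of the 22 fell and 0 rose (3.1% and 1.67% of all genes), with a median of -0.13. It was LOC_Os01g63270, at 13.1, 9.65 and 12.1 RPKM in P3MH against 20.6, 22.3 and 21.4 RPKM in WT (log2 fold change -0.84, limma adjusted p = 0.00617). Between P1MH and P3MH limma called 0 of the 22 (0.0311% of all genes). An unadjusted p under 0.05 was reached by 3 of the 22 in P1MH against WT, 6 in P3MH against WT and 4 between the mutants, beside 24.7%, 19.9% and 12.8% of all genes. Of the 3 highest, AGPS2 had a log2 fold change of -0.31 in P1MH against WT (limma adjusted p = 0.269) and 0.03 in P3MH against WT (limma adjusted p = 0.937), and LOC_Os01g44220 one of -0.23 and 0.04 (limma adjusted p = 0.445 and 0.915). LOC_Os03g55090, the other, gave -0.32 in P3MH against WT (limma adjusted p = 0.315). The call of LOC_Os03g55090 was lost under quantile normalization (adjusted p = 0.205), and those of LOC_Os03g52460 and LOC_Os01g63270 were kept in all 19 alternatives.

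**Figure D5:**
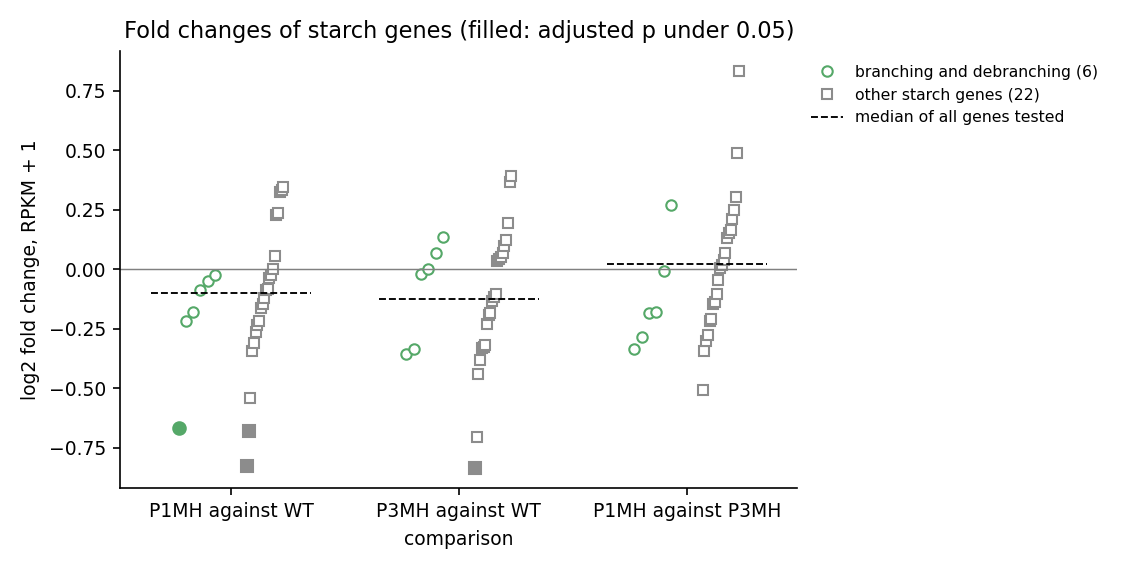
Log2 fold changes of RPKM + 1 for the 6 branching and debranching genes (circles) and the 22 other starch loci (squares) in the 3 comparisons, filled where the limma adjusted p is under 0.05. The dashed lines give the median of all genes tested. In P1MH against WT BEIIa lies at -0.67 beside the 2 other loci that fell (-0.83 and -0.68), and the remaining 5 genes lie between -0.22 and -0.03.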

How the data were processed

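Total RNA of whole dehulled seeds was sequenced from ScriptSeq libraries, per the labels' protocols. The authors deposited RPKM values per locus, per the file headers, with aligner, counter and build not given in the sources used here. Columns were matched to libraries by name and 0 were unused. Library totals, exon lengths and reads were worked out from the steps between RPKM values, requiring whole reads (steps of 0.5 read in WT) within 0.001 read in all 9 libraries, and the smallest fitting exon length was taken. Its multiples also fitted for BEIIa, BEIIb, ISA1 and ISA3, and the recovered reads may then be too few. Reads carry no molecular identifiers, so counting error covers counting only.

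The test was limma 3.58.1 (R 4.3.3) on log2(RPKM + 1) with robust moderation and a trend, for the 16064 genes averaging 1 RPKM or more, with all 9 libraries in 1 fit and Benjamini-Hochberg adjustment over all genes tested. Because of the added 1 RPKM, low genes appear to change less than they do. The spread between libraries was not equal: the residual variance over its average was 1.27 in P1MH, 1.07 in P3MH and 0.662 in WT. Ratios were tested with SciPy 1.17.1 under Python 3.11.15; tables used pandas 2.3.3 and numpy 2.4.6, and figures matplotlib 3.10.9.

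Members, lists and tests were chosen with earlier results of these data known. All 6 genes were named, with their most alike genes by Pearson's r and, of the other starch loci, those called and the 3 highest. Names of the 6 genes came with the loci. RefSeq (assembly ASM3414082v1) held a matching name, on the same chromosome and with a span 0.8 to 1.25 times that of the table, for 2 of the 6 (BEI and ISA1) and 8 of the 22 other starch loci, and loci of the others are given by identifier. Alternatives were rescalings, filters, a pseudocount of 0.1, other moderation, pairs of genotypes alone, a replicate block and libraries left out in turn.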

Additional observations from a re-analysis of the deposited data

How the results depend on the processing

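The count of 1 branching or debranching gene called in P1MH against WT became 0 under quantile, upper-quartile and median-ratio rescaling, scaling on all but the 50 highest genes, without a filter on low values, a pseudocount of 0.1, limma without trend and robust moderation, the 2 genotypes alone and a replicate block (BEIIa adjusted p = 0.0729), and it ranged from 0 to 1 with libraries left out in turn. The cause was not tested. Deviations from the genotype means were correlated over genes between libraries of different genotypes. The values were -0.31 to 0.11 for libraries with the same number and -0.21 to 0.30 for those with different numbers. Sharing a number thus did not go with higher values, and the block changed no other count of the starch lists. The count of the other starch loci in P1MH against WT became 1 under quantile normalization. It became 3 with a mean of at least 5 RPKM (19 loci tested) and with the 2 genotypes alone. The added locus was LOC_Os09g12660, at a limma adjusted p of 0.0506 in the main fit. With libraries left out the count ranged from 2 to 3 in P1MH against WT, 1 to 2 in P3MH against WT and 0 to 1 between the mutants.

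Signs that turned belonged to fold changes that were not called. In P1MH against WT, BEIIb became 0.066, 0.061, 0.28 and 0.093 under median-ratio, upper-quartile and quantile rescaling and without the 50 highest genes, ISA1 0.087, 0.082, 0.084 and 0.11, ISA3 0.011, 0.0062, 0.0040 and 0.034, and BEI 0.087 under quantile normalization. In P3MH against WT, ISA1 became 0.13 (median-ratio), 0.14 (upper-quartile) and 0.069 (without the 50 highest genes). Between P1MH and P3MH quantile normalization gave 0.10 for BEIIb and 0.14 for ISA1, and scaling without the 50 highest genes 0.044 for ISA1. With libraries left out, BEIIb ranged from -0.16 to 0.021 and ISA1 from -0.10 to 0.037 in P1MH against WT, ISA1 from -0.15 to 0.11 and ISA2 from -0.038 to 0.060 in P3MH against WT, and ISA1 from -0.13 to 0.12 between the mutants. The ratio of ISA1 over ISA2 in P3MH against WT ranged from -0.21 to 0.13. The ratios of BEI and BEIIa to BEIIb kept their direction with a pseudocount of 1 RPKM and with libraries left out, the only alternatives run. Where libraries lay wholly apart, leaving 1 out could not turn the direction. This covers all these comparisons except BEIIa over BEIIb in P1MH against P3MH.

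Over all genes, the calls in P3MH against WT numbered 766 of 16064 genes tested and became 436 of 9047 with a mean of at least 5 RPKM. With libraries left out they numbered 344 (without WT replicate 3) to 903. In P1MH against WT 1416 became 608 (without WT replicate 3) to 1464. Between the mutants 5 became 3 (no trend and robust moderation), 0 (no filter, 30039 genes tested), 3 (2 genotypes alone), 2 (pseudocount 0.1) and 11 (without the 50 highest genes). With libraries left out, 5 became 0 to 242 (without P1MH replicate 3). The planned ratio of PUL over ISA1 was not run, as PUL was not analysed here. Counting error of at most 8.80% for ISA3, the lowest of the 6, was below its variation between replicates.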
